A study of Mus musculus with 24 samples.

Results

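The 10 genes described here encode secreted cytokines and 2 genes that respond to them: the interleukin-6 family ligands Lif, Il6, Il11 and Osm, the interleukin-1 family genes Il1a, Il1b and Il1rn, the cytokine gene Tnf, and the response genes Socs3 and Lrg1. They are the rows of the deposited count table whose Ensembl identifiers map to these symbols, 10 of 57126 identifiers, with 1 identifier each. Lif, Il6, Il1b and Lrg1 were selected on their fold changes between treatments in these same libraries, so every difference given for these 4 genes is a description without a test. Il11, Osm, Il1a, Il1rn, Tnf and Socs3 were not picked for a change, and 5 of these 6 had enough counts to be tested. Osm was left out by the filter on low counts.

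Male wild-type mice of the strain C57BL/6J were starved for 4 h, and fragments of their ileum were cultured for 8 h in Advanced DMEM/F12 medium with 1 of 6 additives, and their mRNA was read by QuantSeq, which counts tags near the 3' end of each transcript. The additives were tCDCA (the taurine conjugate of chenodeoxycholic acid), an extract of wild-type (WT) or of Asbt-/- mice in the form CME(-), an extract of the same kinds of donor in the form CME(+), and the solvent DMSO. Asbt is the bile acid uptake carrier of the ileum, and the Asbt-/- genotype belongs to the donor of the extract, while the treated tissue was wild-type in every library. The labels do not expand CME. Here CME(+) is treated as the form without bile acids: the treatment text names extracts with and without depletion, and a concentration of 200 µM stands beside CME(-) and tCDCA replicates 2 to 4 and never beside CME(+). No concentration is given for replicate 1 of any extract or of tCDCA. Whether replicate fragments were taken from different mice is not stated, and the p-values cover only the variation among these libraries, which could be technical.

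Of 24 libraries 21 were used: 4 with tCDCA, 4 with WT CME(-), 3 with Asbt-/- CME(-), 3 with WT CME(+), 4 with Asbt-/- CME(+) and 3 with DMSO. The submitters had marked 3 as removed, DMSO replicate 1 for a DMSO concentration of 0.5% in place of 0.6%, and replicate 3 of Asbt-/- CME(-) with replicate 2 of WT CME(+) because few of their reads mapped. Column names fall under 2 prefixes, called the first and second run here: replicate 1 of each group is in the first and replicates 2 to 4 are in the second. The labels do not say whether the prefixes mark sequencing runs or separate culture experiments, so these cannot be told apart. No used DMSO library is in the first run. Used libraries held 2755149 to 5602265 counts. Mitochondrial rRNA took 6.78 to 8.29% of the counts in the used first-run libraries and 17.6 to 34.6% in the second-run ones, except tCDCA replicate 3 with 5.29%, whose TMM factor of 1.27 was in the range of the first run. Levels are CPM, the counts of each library brought to a common library size after TMM scaling. Enterocyte markers, among them Slc10a2, which encodes Asbt, and Fabp6, whose product binds bile acids inside the cell, summed to 5525 to 12090 CPM in the used libraries, and none of the 10 was at 0 throughout. Fgf15, a target of the bile acid receptor FXR, was at 174 to 272 CPM in the tCDCA libraries, against 5.94 to 7.95 CPM in the used DMSO libraries. It was also above DMSO with CME(+), treated here as the form without bile acids. The used libraries had 40.35 to 77.77 CPM with WT CME(+) and 48.26 to 83.31 CPM with Asbt-/- CME(+), in the fit 8.29-fold and 8.83-fold above DMSO. The cause was not tested. Tissue fragments were measured in bulk, so fewer cells of a type and less RNA per cell cannot be told apart.

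Cytokines of the interleukin-6 family bind receptor pairs that share gp130, the product of Il6st, and gp130 passes the signal through JAK kinases to the transcription factor STAT3. Lif signals through the Lifr subunit, Il6 through Il6ra, Il11 through Il11ra1 and oncostatin M (Osm) through Osmr. Socs3 is a target of STAT3 whose product binds gp130 and dampens the signal. Interleukin-1 alpha and beta act on the receptor Il1r1 with its partner Il1rap and switch on NF-kB, and the product of Il1rn occupies the same receptor without signalling. In the gut these cytokines are known from wound repair and from inflammation, and Lrg1, a secreted leucine-rich glycoprotein, is an acute phase product induced by cytokines of this kind.

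Promoter windows of 250 bases before the annotated start were read for 9 of the 10 genes from RefSeq (build GRCm38.p6, while the reads were mapped to GRCm39) and searched on both strands for 4 motifs: TGANTCA, the site of AP-1; GGNNTTTCC, the core of NF-kB sites; TTCNNNGAA, the palindrome bound by STAT dimers; and TGACGTCA, the cyclic AMP response element. The stretches below are shown because they hold matches in genes whose levels the results turn on, together with the STAT palindrome of Socs3. The NF-kB match of Il1rn and the AP-1 match of Il1a are not shown. Capitals mark the match, positions count back from the start of the gene, and the letters run 5' to 3' on the strand of the gene.
Lif, chr11:4257318-4257397, plus strand, 80 bases from -250: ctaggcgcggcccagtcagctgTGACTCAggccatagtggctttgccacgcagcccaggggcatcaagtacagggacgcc
Il6, chr5:30012864-30012943, plus strand, 80 bases from -250: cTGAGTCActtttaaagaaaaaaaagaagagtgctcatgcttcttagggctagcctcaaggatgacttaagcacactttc
Il6, chr5:30013034-30013113, plus strand, 80 bases from -80: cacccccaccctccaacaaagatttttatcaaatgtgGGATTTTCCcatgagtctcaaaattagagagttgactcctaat
Il11, chr7:4778202-4778281, minus strand, 80 bases from -140: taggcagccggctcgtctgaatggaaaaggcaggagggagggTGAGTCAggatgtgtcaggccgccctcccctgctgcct
Il1rn, chr2:24336680-24336759, plus strand, 80 bases from -180: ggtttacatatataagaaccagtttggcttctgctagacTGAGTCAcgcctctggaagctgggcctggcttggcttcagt
Socs3, chr11:117969477-117969556, minus strand, 80 bases from -190: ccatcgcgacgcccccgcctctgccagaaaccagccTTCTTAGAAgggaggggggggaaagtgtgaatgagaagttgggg

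The AP-1 letters stood in the windows of Lif, Il6, Il11, Il1rn and Il1a, the NF-kB letters in those of Il6 and Il1rn, and the STAT palindrome in that of Socs3. For Il11 the match was before the second of 2 annotated starts. For Il1rn the AP-1 match was before the first of 3 starts and the NF-kB match before the third. None of the 4 motifs was in the windows of Il1b, Tnf or Lrg1, and none of the matches overlapped another. Among all 32851 RefSeq promoter windows 6.75% held TGANTCA, 4.93% GGNNTTTCC, 7.02% TTCNNNGAA and 1.55% TGACGTCA in the 250 bases before the start. A match is a string of letters and was not tested as a binding site.

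With tCDCA the gp130 ligands Lif, Il6 and Il11 were all higher than with DMSO, and among the 5 tested genes that were not picked, Il11 and Il1rn rose and none fell. In that comparison 5.68% of the 13125 tested genes were called by edgeR (quasi-likelihood test, Benjamini-Hochberg adjusted p under 0.05, two-sided): 2.52% of the tested genes were higher with tCDCA and 3.16% lower. Both calls also stood in the second run alone. Fold changes below are on the log2 scale with their standard error (SE). Overlap between groups is given as a description of these genes, and the share of all genes whose groups do not overlap was not counted.

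Lif had 24.2 CPM in the first-run tCDCA library and 46.2, 59.5 and 27.0 CPM in the 3 second-run tCDCA libraries, against 7.95, 10.5 and 5.26 CPM in the 3 second-run DMSO libraries, which together held 75 Lif counts. Every tCDCA library was above every DMSO library, the removed first-run one at 8.95 CPM included. The fitted difference was 2.34 ± 0.33, a 5.07-fold higher level with tCDCA, and 2.07 without tCDCA replicate 3, which had the most Lif. The extracts lay between: in the second run Lif averaged 14.7 ± 2.55 CPM with WT CME(-) (SD, n = 3), 8.95 ± 2.32 with Asbt-/- CME(-) (n = 2), 15.6 ± 4.64 with WT CME(+) (n = 2) and 13.7 ± 1.31 with Asbt-/- CME(+) (n = 3), against 44.2 ± 16.3 with tCDCA (n = 3) and 7.90 ± 2.61 with DMSO (n = 3). The second-run tCDCA libraries were above all second-run extract libraries. Among the extracts WT CME(+), WT CME(-) and Asbt-/- CME(+) overlapped, and Asbt-/- CME(-) overlapped DMSO. In the first run the order was different for Asbt-/- CME(-), which at 17.8 CPM had the most Lif of the 4 extracts.

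Il6 had 117 CPM in the first-run tCDCA library and 42.4, 31.1 and 13.8 CPM in the second-run ones, against 12.5, 3.50 and 3.60 CPM in the DMSO libraries. The tCDCA libraries varied about as much as the gap between the groups, and the lowest tCDCA library (44 counts) was close to the highest DMSO library (41 counts). The fitted difference was 1.88 ± 0.46, 3.69-fold, and it was 2.76 without DMSO replicate 2, the library with 12.5 CPM, and 2.98 when tCDCA and DMSO were fitted alone, which allows no run term. Second-run means were 10.0 ± 1.82 CPM with WT CME(-), 6.62 ± 2.29 with Asbt-/- CME(-), 8.29 ± 0.409 with WT CME(+), 4.41 ± 0.857 with Asbt-/- CME(+) and 6.54 ± 5.19 with DMSO (SD, n = 3, 2, 2, 3 and 3). Each of the 4 extract groups overlapped DMSO. In the first run all libraries were far higher, 55.1 to 96.9 CPM in the 4 with extracts and 62.8 in the removed DMSO library, and the tCDCA library was again the highest.

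Il11, a ligand that fibroblasts and epithelium are known to secrete after injury, had 170.2 CPM in the first-run tCDCA library and 67.5, 99.0 and 48.7 CPM in the second-run ones, against 15.9, 26.6 and 12.7 CPM in the DMSO libraries. The second-run tCDCA libraries did not overlap the DMSO libraries, and in the first run the tCDCA library was above the removed DMSO one at 85.7 CPM. Il11 rose 3.48-fold (1.80 ± 0.38, edgeR adjusted p = 0.0078), in 3 of 3 second-run tCDCA libraries, and without tCDCA replicate 3, which had the most Il11 of these, by 1.50 (adjusted p = 0.023). It was also higher with tCDCA than with Asbt-/- CME(+), by 1.72 ± 0.33 (adjusted p = 0.0089), where 1.93% of genes were called. No extract differed from DMSO by the test: WT CME(-) stood at 0.80 ± 0.38, Asbt-/- CME(-) at 0.30 ± 0.42, WT CME(+) at 0.48 ± 0.41 and Asbt-/- CME(+) at 0.08 ± 0.38. Asbt-/- CME(-) took opposite ranks in the runs, with 142 CPM in the first, below tCDCA alone, and 12.7 and 16.1 CPM in the second, where its mean was the lowest of the 6 groups.

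**Figure D1:**
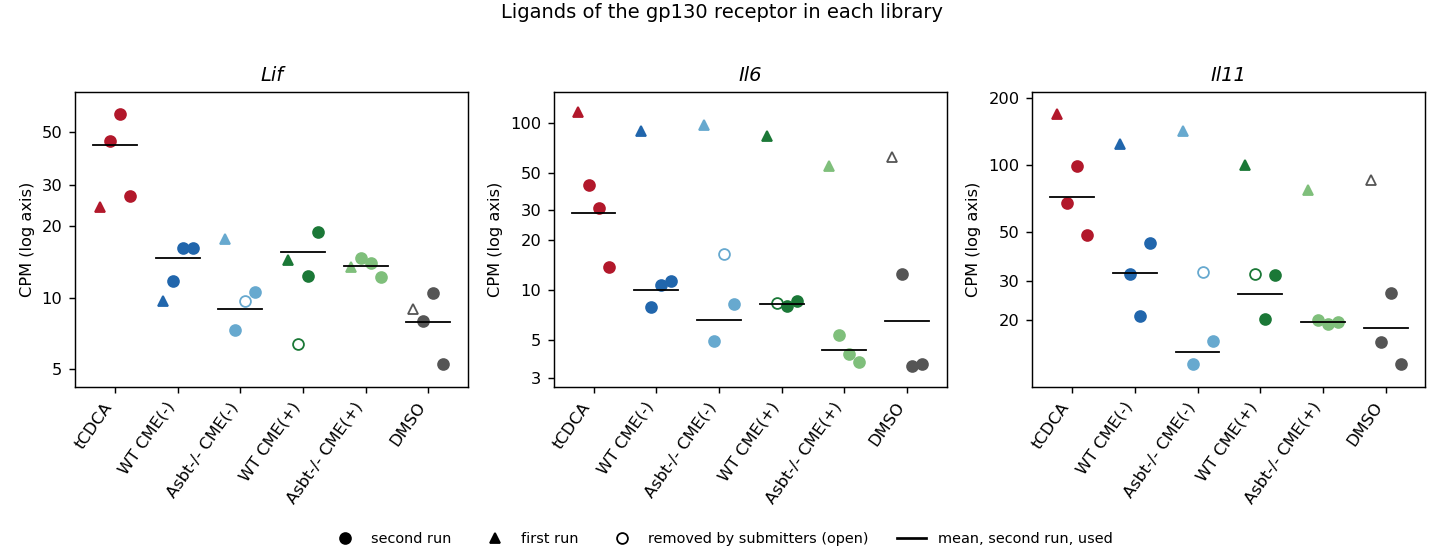
CPM of Lif, Il6 and Il11 (log axis) in all 24 libraries by group. Triangles are first-run and circles second-run libraries, open symbols were removed by the submitters, and bars are means of the used second-run libraries; the second-run tCDCA libraries lie above every second-run DMSO library in all 3 panels, and within each group the first-run library lies above the second-run ones for Il6 and Il11, which for Lif holds in Asbt-/- CME(-) only.

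Osm was near the detection limit. It had 32 counts in the first-run tCDCA library (4.76 CPM) and 2, 2 and 8 counts in the second-run ones, against 6, 1 and 6 counts in the DMSO libraries. The extract libraries in use held 0 to 7 counts each. In the second run tCDCA overlapped DMSO and every extract but Asbt-/- CME(+), which had 0 to 2 counts. In the first run the extract libraries had 0 to 4 counts and the removed DMSO library 11. Osm was not tested.

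Of the interleukin-1 family, the antagonist gene Il1rn rose with tCDCA. It had 235 CPM in the first-run tCDCA library and 82.1, 88.3 and 116 CPM in the second-run ones, against 29.6, 33.6 and 31.0 CPM in the DMSO libraries. The DMSO libraries were tightly grouped and the second-run tCDCA libraries were above them. The rise was 2.72-fold (1.45 ± 0.23, edgeR adjusted p = 9.0e-05). In the first run the order was the other way: 235 CPM in the tCDCA library, against 266 CPM in the removed DMSO library.

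Il1rn was also the only tested gene not picked for a change that was called for an extract against DMSO. With Asbt-/- CME(+) it had 206 CPM in the first run and 65.4, 54.1 and 65.0 CPM in the second, and was 1.87-fold higher than with DMSO (0.90 ± 0.23, edgeR adjusted p = 0.027), in a comparison where 2.31% of genes were called. That call was lost without any 1 of 6 libraries, the 3 of DMSO and second-run replicates 2, 3 and 4 of Asbt-/- CME(+) (adjusted p = 0.051 to 0.126), and when the removed DMSO library was added, which gave 0.56 with an adjusted p of 0.383. Of the other extracts WT CME(-) stood at 0.51 ± 0.23, Asbt-/- CME(-) at 0.70 ± 0.25 and WT CME(+) at 0.71 ± 0.25 against DMSO, none of them called. Between tCDCA and WT CME(-) Il1rn was called at 0.93 ± 0.20 (adjusted p = 0.021), with second-run libraries at 82.1 to 116 CPM with tCDCA and 29.6 to 58.1 CPM with WT CME(-). Without tCDCA replicate 3 or 4, or WT CME(-) replicate 3 or 4, this call was lost (adjusted p = 0.102 to 0.135).

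Il1b, the main inducible interleukin-1, had 112 CPM in the first-run tCDCA library and 23.4, 28.7 and 27.3 CPM in the second-run ones, against 8.86, 17.1 and 10.8 CPM in the DMSO libraries. The second-run groups did not overlap, and in the first run the tCDCA library was above the removed DMSO library at 65.0 CPM. The fitted difference was 1.01 ± 0.24, 2.02-fold, and 1.99 when tCDCA and DMSO were fitted alone without a run term. Second-run means were 16.4 ± 3.55 CPM with WT CME(-) (SD, n = 3), 24.1 ± 0.762 with Asbt-/- CME(-) (n = 2), 11.3 ± 1.12 with WT CME(+) (n = 2) and 12.8 ± 1.23 with Asbt-/- CME(+) (n = 3), against 26.5 ± 2.75 with tCDCA (n = 3) and 12.3 ± 4.33 with DMSO (n = 3). So Asbt-/- CME(-) overlapped tCDCA and lay above DMSO, and both CME(+) groups overlapped DMSO.

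Il1a and Tnf were sparse. Il1a had 2, 9 and 2 counts in the second-run tCDCA libraries, against 2, 0 and 0 counts in the DMSO libraries, and was not called (edgeR adjusted p = 0.342). The DMSO group rests on 2 counts, so no fold is given. Tnf had 7, 12 and 2 counts in the second-run tCDCA libraries, against 5, 5 and 1 counts in the DMSO libraries (0.72 ± 0.79, adjusted p = 0.72). In the first run Tnf reached 90 counts with tCDCA and 105 in the removed DMSO library.

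**Figure D2:**
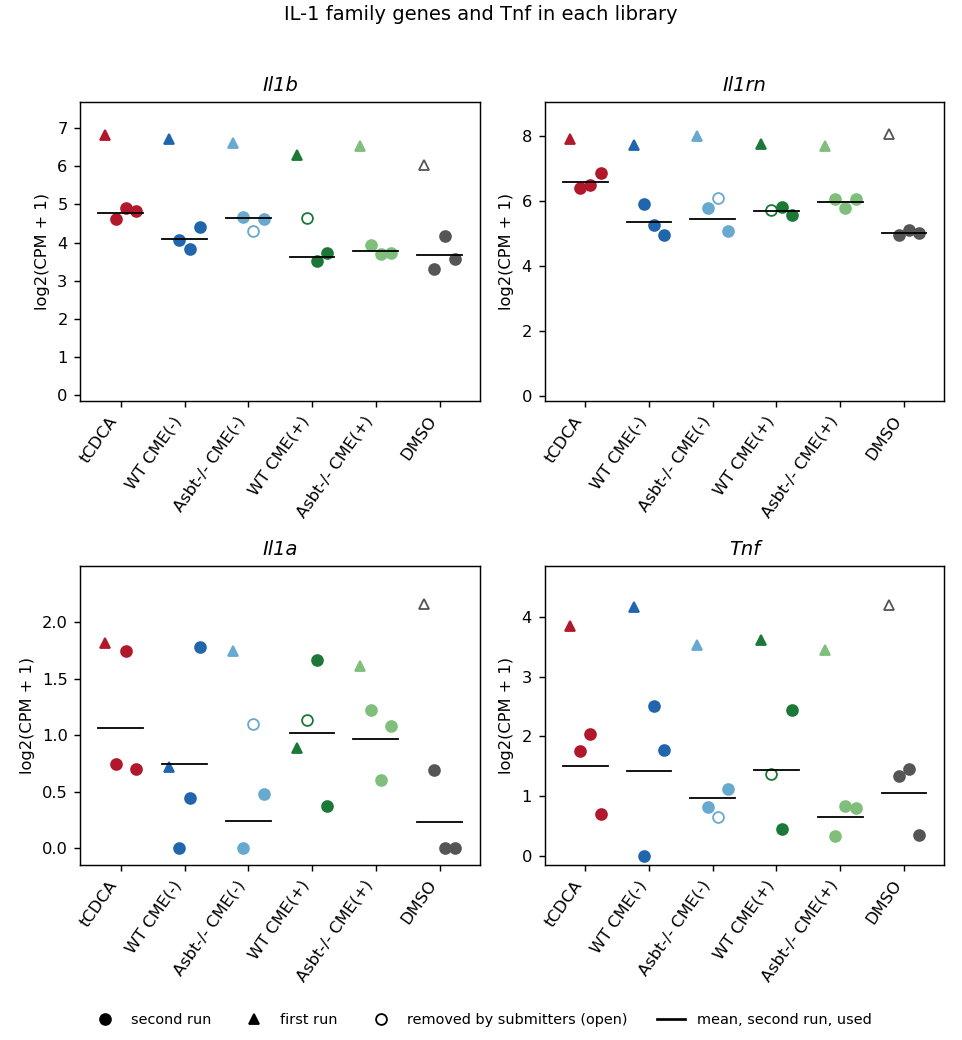
log2(CPM + 1) of Il1b, Il1rn, Il1a and Tnf in all 24 libraries by group, with symbols for run and removal as in the legend and bars at the mean of the used second-run libraries. Il1rn and Il1b with tCDCA lie above DMSO in the second run, and every first-run library of Il1b, Il1rn and Tnf lies above all second-run libraries of its group.

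The 2 response genes behaved differently from each other. Socs3 had 528 CPM in the first-run tCDCA library and 591, 422 and 487 CPM in the second-run ones, against 463, 582 and 342 CPM in the DMSO libraries. The groups overlapped fully. The difference was 0.05 ± 0.17 with a 95% interval of -0.31 to 0.40 (edgeR adjusted p = 0.937), and it turned negative when DMSO replicate 4 (-0.13) or tCDCA replicate 2 (-0.08) was left out. Across the 6 groups second-run means of Socs3 lay between 380.6 CPM with WT CME(+) and 514.7 CPM with WT CME(-), and no comparison called it. The second-run libraries of WT CME(-), at 435 to 556 CPM, were above those of WT CME(+), at 369 and 393 CPM (0.31 ± 0.17, adjusted p = 0.831), while the removed WT CME(+) replicate 2 had 629 CPM.

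Lrg1 had 30.3 CPM in the first-run tCDCA library and 31.6, 36.6 and 37.1 CPM in the second-run ones, against 8.86, 6.64 and 11.6 CPM in the DMSO libraries. The second-run groups did not overlap and the fitted difference was 1.77 ± 0.27, 3.42-fold. The first run did not show this difference, with 30.3 CPM in the tCDCA library and 32.0 CPM in the removed DMSO library. All used second-run libraries of the 4 extracts had more Lrg1 than all 3 DMSO libraries. The gap to DMSO was 0.99 ± 0.27 with WT CME(-), 0.92 ± 0.29 with Asbt-/- CME(-), 1.69 ± 0.28 with WT CME(+) and 2.00 ± 0.27 with Asbt-/- CME(+). With all 24 libraries, which adds the removed DMSO and WT CME(+) libraries, the gap of WT CME(+) was 0.95. By second-run mean the order was Asbt-/- CME(+), tCDCA, WT CME(+), WT CME(-), Asbt-/- CME(-) and DMSO, and tCDCA overlapped both CME(+) groups.

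**Figure D3:**
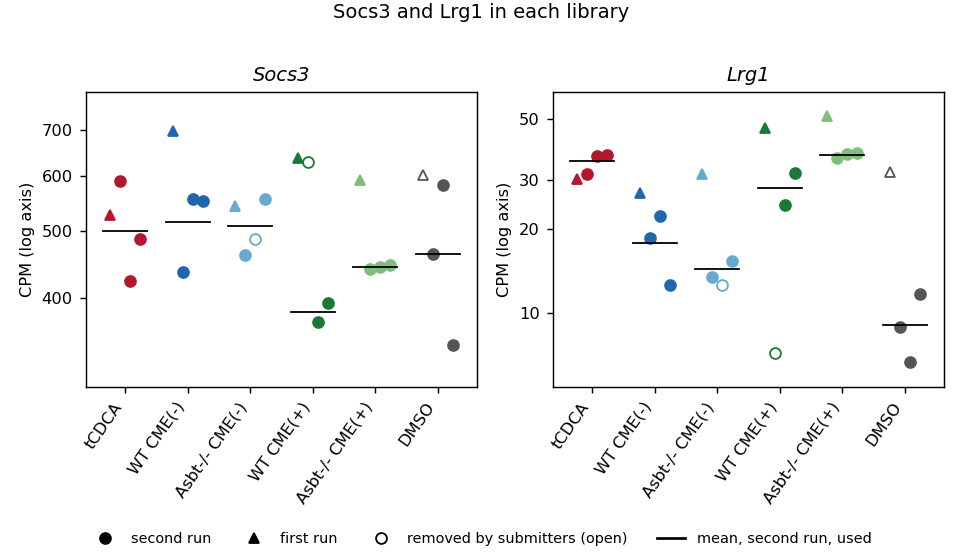
CPM of Socs3 and Lrg1 (log axes) in all 24 libraries by group; symbols show run and removal, bars the mean of the used second-run libraries. Socs3 overlaps between tCDCA and DMSO, and Lrg1 is higher in each second-run tCDCA and extract library that was used than in each second-run DMSO library.

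Between the extract forms Lrg1 differed in the opposite direction to Fgf15, and Il1b in the same direction. Against DMSO Fgf15 was higher with both CME(+) extracts, by 3.05 ± 0.38 for WT (edgeR adjusted p = 0.0014) and 3.14 ± 0.36 for Asbt-/- donors (adjusted p = 0.00014). Its fitted level was higher still with CME(-). For Asbt-/- donors CME(-) was above CME(+) by 2.07 ± 0.28, which was called (adjusted p = 0.0057). For WT donors the difference was 1.46 ± 0.30 and was not called (adjusted p = 0.255). Lrg1 had the opposite sign, -0.71 ± 0.24 for WT and -1.08 ± 0.24 for Asbt-/- donors: its second-run levels were 18.6, 22.3 and 12.6 CPM with WT CME(-) against 24.4 and 31.9 CPM with WT CME(+), and 13.5 and 15.3 CPM with Asbt-/- CME(-) against 35.9, 37.2 and 37.6 CPM with Asbt-/- CME(+). The used second-run groups of each donor genotype did not overlap, and the share of all genes that separate in this way was not counted. In the first run, with 1 library per group, Lrg1 had 27.1 CPM with WT CME(-) against 46.4 with WT CME(+). For Asbt-/- donors it had 31.7 CPM with CME(-) against 51.1 with CME(+). The removed WT CME(+) replicate 2 went the other way, with 7.17 CPM. Il1b was higher with CME(-) for both donors, by 0.46 ± 0.23 and 0.62 ± 0.22, again without overlap among the used second-run libraries. The removed WT CME(+) replicate 2 had 23.9 CPM of Il1b, above the second-run WT CME(-) libraries at 13.3 to 20.3 CPM, and with all 24 libraries the WT difference was 0.20. Some marker sums differed between the forms as well. In the second run the neutrophil markers summed to 2.43 to 6.12 CPM with WT CME(-) against 6.21 to 15.6 CPM with WT CME(+). For Asbt-/- donors they summed to 6.27 to 7.69 CPM with CME(-) against 11.7 to 29.1 CPM with CME(+). In single libraries of these groups 4 to 8 of the 10 were at 0. Only 4 of these 10 markers were tested, and 0 were called between the forms for either donor. Of the 4, 2 had a higher fitted level with CME(-) for WT and 0 for Asbt-/- donors. Endothelial markers summed to 91.1 to 107.5 CPM with WT CME(-) against 120.3 to 131.9 CPM with WT CME(+), and overlapped for Asbt-/- donors. Of 14 macrophage and monocyte markers 3 for WT and 5 for Asbt-/- donors were higher with CME(-), and 0 were called. All 7 smooth muscle markers had higher fitted levels with CME(-) for both donors, at medians of 0.514 for WT and 0.734 for Asbt-/- donors, and 0 of them were called. The part of these cells in the levels of Lrg1 and Il1b was not tested.

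Of the 5 tested genes that were not picked, edgeR called 0 between CME(-) and CME(+) for either donor genotype, with 0 at an unadjusted p under 0.05 and 0 by DESeq2. Few genes of the whole table were called there, 0.0% for WT and 0.0229% for Asbt-/- donors. The labels tie replicates 2 to 4 of both forms to the same extract donors. With the replicate number as a block, over the replicates used in both forms, 21 genes were called for WT and 18 for Asbt-/- donors, and again 0 of the 5. These blocks include replicate 1, for which the labels give no donor. Between Asbt-/- and WT donors 0 of the 5 were called for CME(-) or CME(+), where 0.0% of genes were called for each, and 0 for the difference of the form effect between donors (0.0%), with 0 at an unadjusted p under 0.05 in all 3. DESeq2 called 0 of the 5 in the first 2 of these and was not run on the third.

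Against DMSO the extracts called few genes other than Asbt-/- CME(+): 0.297% with WT CME(-), 0.952% with Asbt-/- CME(-) and 0.175% with WT CME(+). In each of these 3 comparisons edgeR and DESeq2 called 0 of the 5 genes, and 1 had an unadjusted p under 0.05. All these comparisons share the DMSO libraries, so their values are not independent of each other.

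**Figure D4:**
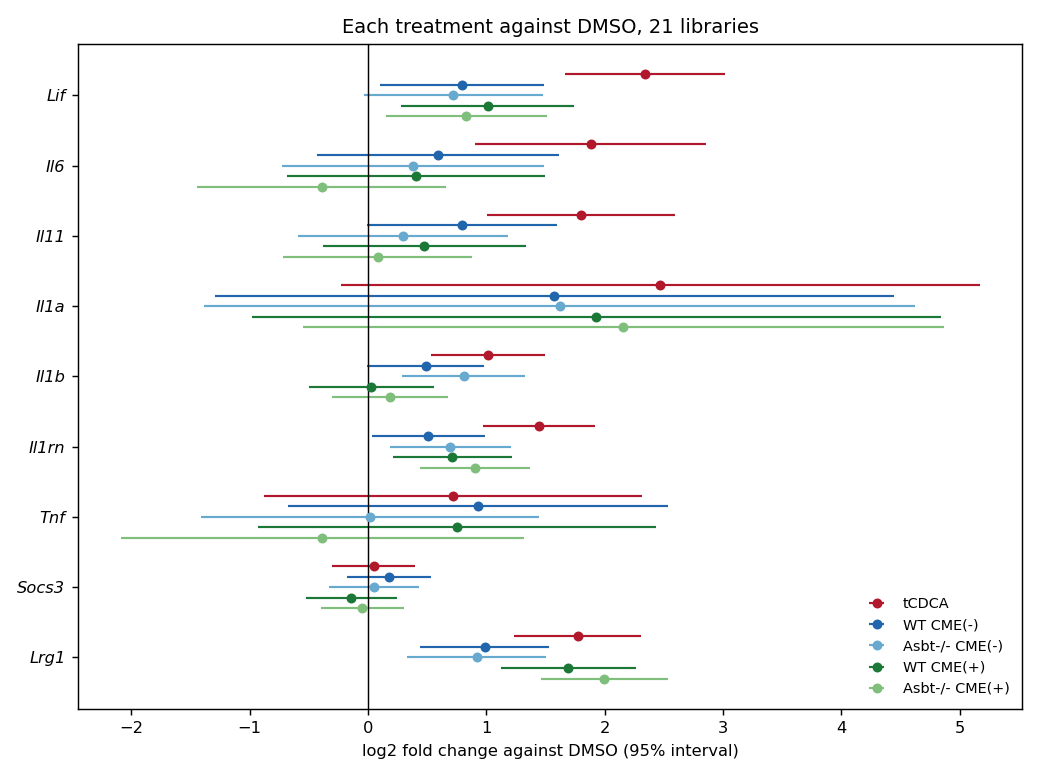
Fitted log2 fold change against DMSO (points) with 95% intervals (bars) for the 9 genes that passed the filter, for tCDCA and the 4 extracts, from 21 libraries. Lif, Il6 and Il11 are highest with tCDCA, Lrg1 is above 0 with every additive and highest with Asbt-/- CME(+), and Socs3 is near 0 with all; the Il1a values rest on 2 DMSO counts.

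Set against the extracts, Lif and Il6, both picked for their changes, had higher levels with tCDCA, and edgeR called Il11 against 1 of the 4. Lif was higher by 1.55 ± 0.28 than with WT CME(-), 1.62 ± 0.32 than with Asbt-/- CME(-), 1.33 ± 0.31 than with WT CME(+) and 1.51 ± 0.28 than with Asbt-/- CME(+). For Il6 the same 4 differences were 1.29 ± 0.39, 1.50 ± 0.44, 1.47 ± 0.43 and 2.27 ± 0.40. Il11 was 2.00-fold higher than with WT CME(-) (log2 interval 0.32 to 1.68), and the other 3 differences were 1.50 ± 0.37, 1.32 ± 0.36 and 1.72 ± 0.33. The edgeR adjusted p of Il11 was 0.224, 0.159, 0.078 and 0.0089 in the same order. In these comparisons 0.541%, 0.114%, 1.55% and 1.93% of genes were called, and of the 5 genes that were not picked 1 (Il1rn), 0, 0 and 1 (Il11). At an unadjusted p under 0.05 there were 2 in each, and DESeq2 called 2, 1, 1 and 1. Il11 was among the DESeq2 calls in all 4, with DESeq2 adjusted p-values of 0.047, 0.0012 and 0.0054 in the first 3. For Fgf15 the difference of tCDCA was 0.47 ± 0.26 from WT CME(-), with a 95% interval of -0.08 to 1.02, and -0.23 ± 0.28 from Asbt-/- CME(-), with an interval of -0.81 to 0.36. Lrg1 was higher with tCDCA than with the CME(-) extracts, by 0.78 ± 0.22 and 0.85 ± 0.25, and close to the CME(+) extracts, at 0.08 ± 0.24 for WT and -0.22 ± 0.21 for Asbt-/- donors.

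The receptors and signal genes of the gp130 pathway did not change by the test. Of 23 listed genes 18 were tested and 0 were called by edgeR in any of the 14 comparisons. With tCDCA against DMSO 3 had an unadjusted p under 0.05 and DESeq2 called 0; its single call over the list was Cish, a feedback inhibitor of STAT signalling, for tCDCA against Asbt-/- CME(+) (0.79 ± 0.23, DESeq2 adjusted p = 0.022). The list's median difference with tCDCA against DMSO was 0.109, against 0.0019 over all tested genes. Il6st was at -0.29 ± 0.23 and Stat3 at -0.10 ± 0.17. The Lif receptor gene Lifr had 2.09 to 7.81 CPM in the second-run tCDCA libraries, against 10.7 to 11.5 CPM in the DMSO libraries, and at -1.09 ± 0.39 missed the threshold (edgeR adjusted p = 0.103). Osmr was at 0.57 ± 0.34 and Il6ra at -0.38 ± 0.44.

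Of 29 listed STAT3 response and acute phase genes 24 were tested, and with tCDCA against DMSO 3 rose and 0 fell, at a median of 0.325, where 2.52% of all tested genes were higher and 3.16% lower. The genes were Cebpb, a transcription factor of the acute phase response, at 41.7 ± 8.12 CPM with tCDCA and 16.9 ± 4.87 with DMSO (SD, n = 3 each; 1.23 ± 0.27, edgeR adjusted p = 0.0026), the stress response gene Ier3 (0.85 ± 0.18) and Reg3g, an antibacterial lectin gene (0.86 ± 0.23). Reg3g has near-identical relatives that may share its reads, and its call was lost without DMSO replicate 3 (adjusted p = 0.174), DMSO replicate 4 or tCDCA replicate 3. With Asbt-/- CME(+) against DMSO, where 2.31% of genes were called, Reg3g rose by 1.31 ± 0.24 and Bcl3, an NF-kB cofactor, by 1.35 ± 0.25, while Fos, a subunit of AP-1, fell by 0.69 on the log2 scale (SE 0.16), a call that was lost without DMSO replicate 3 (adjusted p = 0.123) or Asbt-/- CME(+) replicate 2. With WT CME(+), where 0.175% of genes were called, Bcl3 was called too (1.30 ± 0.28, adjusted p = 0.035), and this was lost without WT CME(+) replicate 1 or 4 or any 1 DMSO library, with an adjusted p of up to 0.163. The survival gene Mcl1 was higher with tCDCA than with WT CME(-) by 0.63 ± 0.15, lost without WT CME(-) replicate 1, 3 or 4 or tCDCA replicate 2, 3 or 4 (adjusted p of up to 0.158), and than with Asbt-/- CME(+) by 0.65 ± 0.15, lost without Asbt-/- CME(+) replicate 3 (adjusted p = 0.073). Ier3 was higher with tCDCA than with WT CME(+) by 0.89 ± 0.18.

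Of 28 listed interleukin-1 family, receptor and inflammasome genes 26 were found in the table and 22 were tested. With tCDCA against DMSO 1 rose and 3 fell, at a median of -0.224, where 2.52% of all tested genes were higher and 3.16% lower. Il1rl1, the receptor of interleukin-33, had 65.5 to 92.1 CPM in the second-run tCDCA libraries, against 26.9 to 45.8 CPM in the DMSO libraries, and rose by 1.05 ± 0.23 (edgeR adjusted p = 0.0032). Its higher level with tCDCA than with Asbt-/- CME(-) (1.04 ± 0.23) and Asbt-/- CME(+) (0.79 ± 0.20) was not stable: the call against Asbt-/- CME(-) was lost without tCDCA replicate 2, 3 or 4 or Asbt-/- CME(-) replicate 2 or 4 (adjusted p of up to 0.502), and that against Asbt-/- CME(+) without tCDCA replicate 2 or 4 or any 1 Asbt-/- CME(+) library (up to 0.148). The 3 that fell are known from the epithelial inflammasome: Il18 was at 2.83 to 6.45 CPM with tCDCA, against 11.4 to 14.0 CPM with DMSO, and fell by 1.38 (SE 0.39), the sensor gene Nlrp6 fell by 0.94 (SE 0.26) and the pore gene Gsdmd by 1.28 (SE 0.33), all on the log2 scale. In the first run, which has no used DMSO library, the tCDCA library had 13.2 CPM of Il18, 25.4 of Nlrp6 and 47.6 of Gsdmd. The 4 first-run extract libraries had 8.81 to 23.85, 12.9 to 29.5 and 40.5 to 64.0 CPM of these genes. All 3 calls were lost without DMSO replicate 3, with adjusted p-values of 0.113 for Il18, 0.142 for Nlrp6 and 0.218 for Gsdmd. Il18 was also lost without DMSO replicate 2 or tCDCA replicate 3 or 4, Nlrp6 without DMSO replicate 2 or tCDCA replicate 2, 3 or 4, and Gsdmd without tCDCA replicate 2 or 4. Il1r1 (0.80 ± 0.43) and Il1rap (-0.26 ± 0.73) were not called.

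All 23 listed TNF receptor and NF-kB feedback genes were tested. With tCDCA against DMSO, where 5.68% of all genes were called, Zc3h12a, an RNase that degrades Il6 mRNA, rose by 0.90 ± 0.27 (edgeR adjusted p = 0.041) and the NF-kB subunit gene Relb fell by 0.59 on the log2 scale (SE 0.18, adjusted p = 0.046). Both were lost without DMSO replicate 3, at adjusted p-values of 0.142 and 0.251, without DMSO replicate 2 and without tCDCA replicate 2, 3 or 4, and Zc3h12a also without DMSO replicate 4. The list's median was 0.175, and Tnfrsf1a was at -0.18 ± 0.20. Relb also fell with Asbt-/- CME(+), by 0.64 (SE 0.18), lost without DMSO replicate 2 or 3 (adjusted p = 0.309 without replicate 3) or Asbt-/- CME(+) replicate 2, 3 or 4, and Nfkb1 was higher with tCDCA than with Asbt-/- CME(+) by 0.63 ± 0.15, lost without tCDCA replicate 2 or Asbt-/- CME(+) replicate 2, 3 or 4 (adjusted p of up to 0.063).

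Sums of markers of other cells differed between some groups as well, in both directions. The 10 neutrophil markers summed to 11.6 to 14.1 CPM in the second-run tCDCA libraries, against 1.94 to 6.11 CPM in the DMSO libraries. With Asbt-/- CME(+) they summed to 11.7 to 29.1 CPM in the second run. The first-run tCDCA library had 124.9 CPM of these markers, against 111.3 CPM in the removed DMSO library. These sums rest on few genes: 7, 7 and 8 of the 10 were at 0 in the second-run tCDCA libraries, and 6, 8 and 6 in the DMSO ones. Only 4 of the 10 were tested. Against DMSO 0 of them were called with tCDCA and 1 with Asbt-/- CME(+), where 5.68% and 2.31% of all tested genes were called. Elane and Ngp were at 0 in every used library. The 14 macrophage and monocyte markers summed to 153 to 182 CPM with tCDCA and 139 to 152 CPM with DMSO in the second run. Endothelial markers were at 107 to 129 CPM with tCDCA and 100.0 to 114 CPM with DMSO, and the fibroblast markers at 352 to 581 CPM with tCDCA and 550.2 to 592 CPM with DMSO. With tCDCA 1 of the 14 macrophage and 1 of the 10 endothelial markers rose. Of the 10 fibroblast markers 1 had a higher fitted level and 0 were called. The T and NK cell markers were lower, at 1.57 to 4.71 CPM with tCDCA and 5.595 to 6.725 CPM with DMSO, with 5 of 10 tested and 0 called. The enterocyte markers summed to 5525 to 8979 CPM in the second-run tCDCA libraries, against 9507 to 11670 CPM in the DMSO libraries, and 6 of the 10 fell and 1 rose with tCDCA, at a median of -1.06, against 3.16% lower and 2.52% higher among all tested genes. The removed DMSO library had 6967 CPM of these markers and the first-run tCDCA library 11050 CPM. The part of these cells in the levels of the cytokine genes, Il18, Nlrp6 and Gsdmd was not tested.

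The runs differed for some of the 10 genes more than tCDCA and DMSO did, by a smaller margin for Il11 and Il1rn (1.80 and 1.45 with tCDCA on the log2 scale). Averaged over the 5 groups with used libraries in both, Il6 was 9.21-fold higher in the first run than in the second, Tnf 8.92-fold, Il1b 5.51-fold, Il11 4.29-fold and Il1rn 4.07-fold. On the log2 scale these are 3.20, 3.16, 2.46, 2.10 and 2.03, while the median over all tested genes was -0.01, and 0.39% of genes were as high as Il6. Lif did not take part, at -0.10 and between -0.79 and 0.99 in single groups, nor did Socs3 (0.36) and Lrg1 (0.55) to a like extent. The neutrophil markers summed to 62.6 to 125 CPM in the first run against 1.94 to 29.1 in the second, the macrophage and monocyte markers to 324 to 422 against 112 to 182, the B and plasma cell markers to 340 to 482 against 93.3 to 165 and the fibroblast markers to 779 to 1061 against 328 to 592 CPM. The part of these cells in the difference between runs was not tested. Within the second run, tCDCA against DMSO called the same number of the 5 genes, 2.

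**Figure D5:**
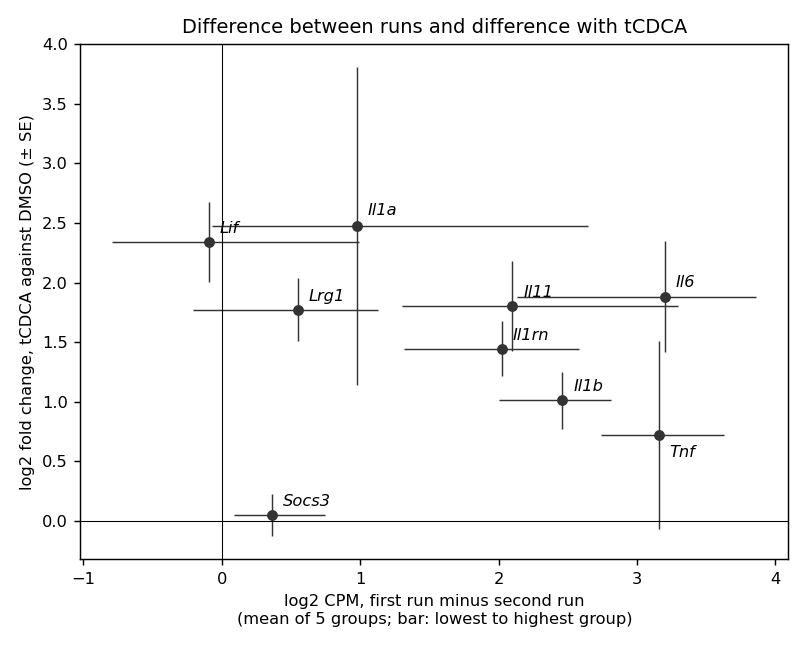
Difference in log2 CPM between first and second run (x axis, mean over 5 groups, bars from the lowest to the highest group) against the fitted log2 fold change of tCDCA against DMSO (y axis, bars are SE) for 9 genes. Lif is near 0 on the x axis and 2.34 on the y axis, Tnf is at 3.16 and 0.72, and Il6, Il11, Il1b and Il1rn lie high on both.

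Over the 21 libraries, with run means removed, the genes whose log2 CPM was most like that of Lif among 7501 genes were Il11 (Pearson r = 0.894), Fam129b (0.885), the urokinase gene Plau (0.884), Procr, the protein C receptor gene (0.86), and Areg, which encodes an EGF receptor ligand (0.806). Among the listed genes Il6 followed at 0.786, Il1rn at 0.668, Lrg1 at 0.589, the sparse Il1a at 0.556, Il1b at 0.537 and the sparse Tnf at 0.428, and Socs3 was at 0.156. Most like Il1b were the small heat shock protein gene Cryab (0.864), Plat, the tissue plasminogen activator gene (0.844), the AP-1 subunit gene Fosl1 (0.826), the actin gene Actg1 (0.769) and Ipo7 (0.764). These are descriptions over libraries that share treatment groups, and no p was computed.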

How the data were processed

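The deposited table holds raw counts, whole numbers for each Ensembl gene identifier in 24 libraries. The submitters' processing notes name cutadapt, FastQC, Picard and HISAT2, without versions, and the build GRCm39. How reads were assigned to genes, and whether strand was used, is not given in the sources used here. Symbols came from GENCODE M21 and named 51884 of 57126 identifiers, with 88.4% of the counts. The 21 libraries not removed by the submitters entered 1 fit in edgeR 4.0.16 under R 4.3.3 (filterByExpr, TMM, robust quasi-likelihood, terms for group and run, 13125 genes, common coefficient of variation 0.266, adjusted p under 0.05 by Benjamini-Hochberg). DMSO has no used first-run library, so its run term comes from the other groups. Intervals are 95%. CPM was computed from the counts after TMM scaling, and low counts limit the precision of Osm, Il1a and Tnf. Alternatives included DESeq2 1.42.0, other scalings, filters and library sets, and each library left out. The fit was tested on simulated data. The members, gene lists, motifs and tests were chosen with earlier results of these data known.

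Named besides the 10 genes are up to 4 called members of each list by smallest p, 8 fixed receptor and signal genes, the 5 genes most like Lif and Il1b (proper symbol, mean log2 CPM of at least 3) and Fgf15; Cish was added after its value was seen. No pair of replicates agreed within sampling noise, the smallest ratio of chi-square to its degrees of freedom being 5.16. Correlations of deviations from the group mean were -0.17 to 0.147 between libraries with the same replicate number. Extract donors, given by the labels for replicates 2 to 4 of CME(-) and CME(+), gave -0.006 to 0.106 over 4 pairs. Asbt-/- CME(-) and WT CME(+) have 2 used second-run libraries each, whose deviations mirror each other. These correlations therefore cannot show whether the libraries were paired.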

Additional observations from a re-analysis of the deposited data

Results flagged for a closer look

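Within groups of 4 used libraries, the CPM of 1 library stood apart from the other 3 in 11 of the 30 gene and group pairs tested, and in all 11 the library was replicate 1, from the first run. The measure is the gap to the nearest library as a share of the group's range, set against Dixon's 95% critical value, and chance flags about 1 in 20 groups. For Il6 the share was 0.958 with WT CME(-) (89.4 CPM in replicate 1) and 0.968 with Asbt-/- CME(+) (55.1 CPM). For Il11 it was 0.985 with Asbt-/- CME(+) (77.2 CPM). Il1b stood apart with tCDCA (0.94, 112 CPM), WT CME(-) (0.924, 105 CPM) and Asbt-/- CME(+) (0.972, 91.2 CPM). Il1rn did with WT CME(-) (0.842, 209.9 CPM) and Asbt-/- CME(+) (0.925, 206 CPM). In Asbt-/- CME(+) replicate 1 the shares were also 0.947 for Tnf (9.93 CPM), 0.955 for Socs3 (593 CPM) and 0.891 for Lrg1 (51.1 CPM). No pair with Lif was among them. The sums of neutrophil, macrophage, fibroblast and B cell markers were higher in the same first-run libraries. Their part in these values was not tested.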

How the results depend on the processing

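Of 259 recomputed counts of called genes among the 5 that were not picked 226 held, 13 grew and 20 shrank, and of 1336 recomputed log2 fold changes 1231 held, 9 changed sign, 18 passed the threshold that the reported value missed, 21 missed the one it passed, and 57, all of Lif, Il6, Il1b or Lrg1, moved by more than 1 SD between replicates. For tCDCA against DMSO the count of 2 held under every alternative except a fit without the run term (0). Asbt-/- CME(+) against DMSO fell to 0 without the run term, with all 24 libraries, with DMSO replicate 1 added and in the compared groups alone (0 to 1 over leave-outs). tCDCA against WT CME(-), 1 as reported, gave 2 without a filter and by DESeq2, 0 under those same 4 settings and 0 to 1 over leave-outs. tCDCA against Asbt-/- CME(-), 0 as reported, gave 2 without a filter, 1 by DESeq2, 2 in the second run alone and 0 to 2 over leave-outs (2 without tCDCA replicate 1, 1 without Asbt-/- CME(-) replicate 1). tCDCA against WT CME(+), 0 as reported, gave 2 without a filter and 1 by DESeq2, in the second run alone and with all 24 libraries, with 0 to 2 over leave-outs (2 without tCDCA replicate 1). tCDCA against Asbt-/- CME(+), 1 as reported, gave 0 without the run term and 1 to 2 over leave-outs. Il11 turned to -0.33 in the second run alone for Asbt-/- CME(-) against DMSO (leave-outs -0.33 to 0.65) and to -0.43 for Asbt-/- CME(-) against Asbt-/- CME(+) (-0.5 to 0.49), and ranged from -0.12 to 0.44 over leave-outs for Asbt-/- CME(+) against DMSO. Il1rn for Asbt-/- CME(-) against Asbt-/- CME(+) was 0.23 without the run term and -0.45 to 0.03 over leave-outs, and Socs3 for tCDCA against DMSO -0.13 to 0.25. The cause was not tested. With a replicate block 2 of the 5 were called for tCDCA against DMSO, and the block changed no count of the 5 in any comparison. Of the moved values, Il6 for tCDCA against DMSO (1.88) was 2.97 without the run term, 2.98 in the compared groups alone and 2.76 without DMSO replicate 2, and Il1b (1.01) 1.98, 1.99 and, without DMSO replicate 3, 1.32. Against DMSO Lrg1 with all 24 libraries was 1.36 for tCDCA, 0.55 for WT CME(-), 0.36 for Asbt-/- CME(-), 0.95 for WT CME(+) and 1.57 for Asbt-/- CME(+). Lif for tCDCA against Asbt-/- CME(-) (1.62) was 2.29 in the second run alone. Without the run term Il11 for tCDCA against DMSO was 2.40 and Il1rn 2.06. The call of Il11 for tCDCA against DMSO had adjusted p-values of 1.4e-11 to 0.293 over 19 alternatives, and that of Il1rn 4.7e-11 to 0.345.

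Over all genes 746 were called for tCDCA against DMSO, against 427 without scaling factors, 176 without the run term, 418 with all 24 libraries, 464 with DMSO replicate 1 added, 197 in the compared groups alone and 327 and 496 without DMSO replicate 3 or tCDCA replicate 4. For the other comparisons against DMSO the lowest and highest counts were 2 and 109 for WT CME(-) (39 as reported), 3 and 311 for Asbt-/- CME(-) (125), 1 and 145 for WT CME(+) (23) and 3 and 507 for Asbt-/- CME(+) (303). For tCDCA they were 0 and 495 against WT CME(-) (71), 0 and 304 against Asbt-/- CME(-) (15), 0 and 528 against WT CME(+) (203) and 3 and 666 against Asbt-/- CME(+) (253). For CME(-) against CME(+) they were 0 and 198 for WT (0) and 0 and 254 for Asbt-/- donors (3), and for Asbt-/- against WT donors 0 and 219 for CME(-) (0) and 0 and 129 for CME(+) (0). The highest count was that of DESeq2 in each.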
